A study of Mus musculus with 6 samples.

Results

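The 46 genes described here encode assembly factors of the large (60S) ribosomal subunit, the H/ACA particle that converts uridine to pseudouridine, and nucleolar chaperones and transcription factors. They were taken by symbol from a table of 55291 genes, and all 46 were found. Ribosomal RNA is transcribed by RNA polymerase I in the nucleolus, and the large subunit matures there, in the nucleoplasm and at last in the cytoplasm, with factors joining and leaving the precursor (pre-60S) in order. The fully grown oocyte stores the ribosomes that the early embryo uses, and its nucleolus becomes a compact body of low rRNA synthesis. NAT10, an acetyltransferase of the nucleolus, places N4-acetylcytidine on RNA, including the rRNA of the small subunit.

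Polyadenylated RNA was measured in 6 pools of 10 fully grown oocytes each, by Smart-seq2, a method that amplifies full-length cDNA. One group, WT, holds 3 libraries from wild-type females; the other, Nat10 cKO, holds 3 libraries from females in which Gdf9-cre, a recombinase driven by an oocyte promoter, deletes Nat10 conditionally. All females had received PMSG, a gonadotropin that stimulates follicle growth, 36 to 48 h earlier per the extraction protocol and 32 to 48 h per the design text, and all pools received an ERCC spike-in. Neither ages nor whether the pools of a group came from separate females are stated in the labels, so p-values measure the spread between these pools only. The title places the question in translational control by mRNA acetylation during meiotic maturation.

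Libraries held 33.5 to 65.5 M recovered reads in WT and 47.4 to 74.1 M in Nat10 cKO. Levels are TMM-scaled CPM (reads per 1000000 reads, after scaling each library to the bulk of its genes). Changes are log2(CPM + 1) differences, Nat10 cKO minus WT, from limma over 18353 tested genes with a Benjamini-Hochberg threshold of 0.05, and "rose" or "fell" means that a gene passed it. The targeted gene, Nat10, was at 43.9 ± 5.59 CPM in the WT pools and 6.002 ± 0.301 CPM in Nat10 cKO (SD, n = 3). Oocyte markers such as Gdf9 summed to 20010 to 20560 CPM in the WT pools and 25050 to 30400 CPM in Nat10 cKO. Of 10 oocyte markers, 9 rose and 1 fell, where 17.4% of all tested genes rose and 17.6% fell. Markers of granulosa and cumulus cells summed to 115 to 127 CPM in the WT pools and 113 to 126 CPM in Nat10 cKO, with Cyp19a1 the most abundant. Sums for theca, stroma and endothelium (led by Pecam1) were 96.6 to 102 and 94.2 to 108 CPM, and for blood and immune cells (led by C1qb) 51.1 to 55.8 and 41.2 to 44.5 CPM. None of these markers was at 0 in all libraries, and 5 of 13, 6 of 12 and 6 of 9 stayed under 1 CPM in every library. The part of those cells in the results was not tested. In pooled oocytes, fewer contributing cells and less RNA per cell cannot be told apart.

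In Nat10 cKO oocytes, 30 of the 46 genes did not pass the threshold, a share near that of all tested genes. Mean CPM was 2.11-fold to 3.88-fold higher for 7 weakly expressed genes (Mdn1, Nop16, Mak16, Rrs1, Ubtf, Nop2 and Bop1). The pseudouridylation enzyme gene Dkc1 was lower, with its partner Gar1. In all, 13 of 46 rose and 3 fell. That is 34.8% of the members, against 35% of all tested genes. By direction, 28.3% of the members rose against 17.4% of all tested genes, and 6.52% fell against 17.6%. The median change was 0.09 over the members and 0.00096 over all tested genes. Groups did not overlap, with Nat10 cKO higher, for 17 members (37.0%, against 24.1% of tested genes) and, with Nat10 cKO lower, for 5 (10.9%, against 24.2%). Of the 30 members that did not pass, 26 changed by less than 0.25 on the log2 scale. Small changes were common among all tested genes too, whose quartiles were -0.245 and 0.242, against -0.028 and 0.338 for the members.

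**Figure D1:**
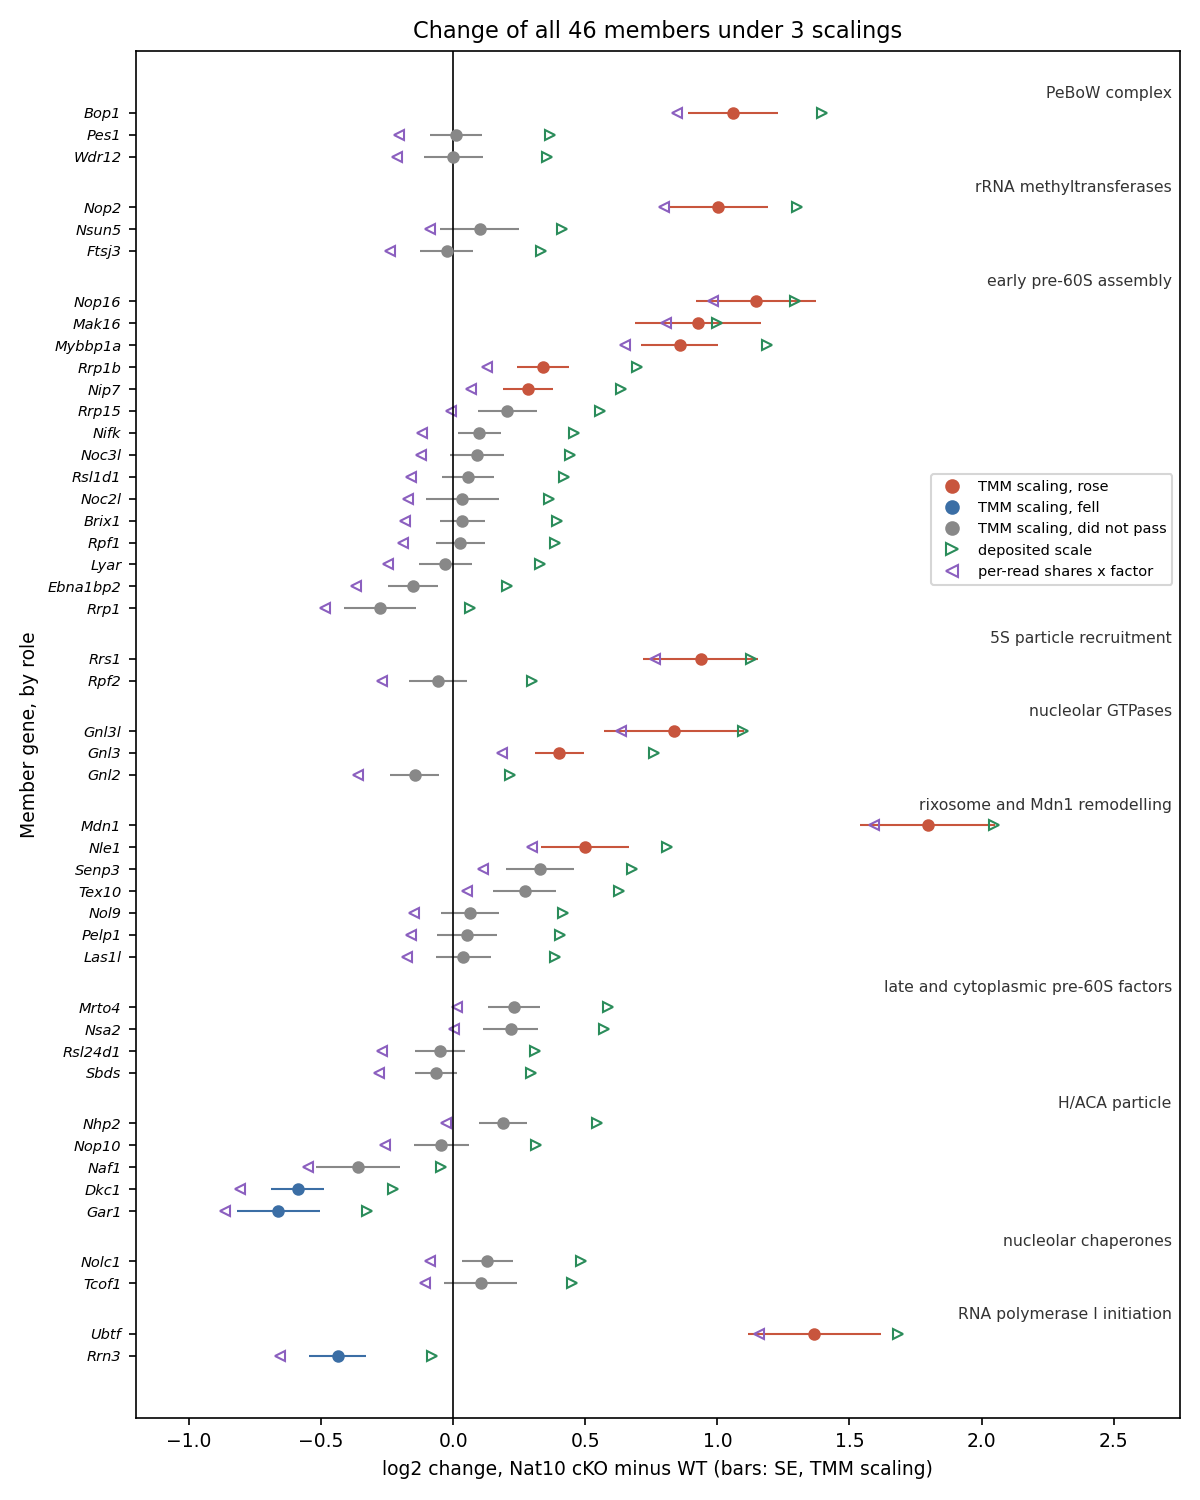
Change of each of the 46 members by role (log2, Nat10 cKO minus WT): circles with SE bars are TMM scaling, right-pointing triangles the deposited scale and left-pointing triangles per-read shares times the deposited factor. Mdn1 has the largest change at 1.80, and Dkc1 and Gar1 lie at -0.59 and -0.66.

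The direction of small changes depends on how libraries are scaled. The authors' deposited values carry 1 factor per library. Their totals were 33.5, 47.1 and 61.9 M in the WT libraries and 68.2, 43.0 and 66.2 M in Nat10 cKO. The fit on them divided all columns by 1 constant, so these differences between libraries, sequencing depth among them, stayed in. On that deposited scale the median of all tested genes moved to 0.24; multiplying each gene's share of reads by the same factors (per-read shares) moved it to -0.15. As deposited, 9 members rose and 0 fell, where 7.97% of tested genes passed, 6.58% higher and 1.39% lower. On per-read shares, 7 rose and 3 fell, where 22.1% of tested genes passed, 5.6% higher and 16.5% lower. The edgeR test on recovered reads gave 12 rises and 3 falls, beside 33.8% of tested genes called (16.6% higher and 17.2% lower), and 15 of its calls matched limma's. Passing as higher in all 15 alternative analyses were 6 genes: Bop1, Nop2, Nop16, Rrs1, Mdn1 and Ubtf.

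Promoter stretches are shown for the 12 called genes whose window held a motif searched, so that genes that rose can be set beside genes that fell. A RefSeq window (GRCm38.p6), from 250 bases before to 50 after a start site, was matched for 36 of the 46 members. Windows were searched on both strands for the E-box CACGTG, bound by MYC and related factors, and for an ETS factor core spelled CCGGAAG. The GC box was searched as GGGCGG, and the box bound by NF-Y as CCAAT. The core used for NRF1 was GCGCATG, that for YY1 was AAGATGG, and the CGCG element was searched by its core TCTCGCG. Of 136 matches, 4 overlapped a match of another motif. An E-box was present in 9 of 36 members (25%), against 8.09% of the 27025 genes with a window and 10.8% of the tested genes among them. It was found in 4 of 9 members that rose (Nop2, Mdn1, Mybbp1a, Nle1), in 1 of 3 that fell (Rrn3) and in 4 of 24 that did not pass (Pes1, Pelp1, Rpf2, Tex10). The ETS core was in 44.4% of members and 9.93% of all genes (17.4% of tested genes), in 2 of 9 that rose, 2 of 3 that fell and 12 of 24 that did not pass. The GC box was in 66.7% of members, 38.2% of all genes and 60.4% of tested genes, and CCAAT in 25%, 41.1% and 43%. By direction, the GC box was in 8 of 9 members that rose, 1 of 3 that fell and 15 of 24 that did not pass. CCAAT had the same split as the E-box, at 4 of 9, 1 of 3 and 4 of 24. NRF1, YY1 and CGCG element matches were in 13.9%, 5.56% and 11.1% of members, against 4.41%, 7.28% and 2.92% of all genes and 7.06%, 8.14% and 5.35% of tested genes. In the same order, they were in 1, 0 and 1 of the 9 that rose, 1, 0 and 0 of the 3 that fell, and 3, 2 and 3 of the 24 others. These are matches of letters, not measured sites. The 80-base stretches below lie upstream of the start site and outside annotated exons, run 5′ to 3′ on the gene's strand, and carry the matches in capitals; a match to the other strand appears as its reverse complement.
Nop2, rose, chr6:125131803-125131882, plus strand: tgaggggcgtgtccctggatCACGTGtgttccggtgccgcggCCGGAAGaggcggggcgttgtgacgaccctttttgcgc
Rrp1b, rose, chr17:32035952-32036031, plus strand: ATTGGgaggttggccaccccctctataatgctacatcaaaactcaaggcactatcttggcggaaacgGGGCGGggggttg
Nop16, rose, chr13:54590115-54590194, minus strand: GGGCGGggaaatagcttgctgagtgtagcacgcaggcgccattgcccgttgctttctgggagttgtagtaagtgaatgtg
Mybbp1a, rose, chr11:72441247-72441326, plus strand: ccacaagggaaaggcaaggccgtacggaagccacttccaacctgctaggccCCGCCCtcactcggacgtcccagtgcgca
Nip7, rose, chr8:107056719-107056798, plus strand: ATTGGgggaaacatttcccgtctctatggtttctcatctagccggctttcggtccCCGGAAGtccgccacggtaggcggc
Gnl3, rose, chr14:31019300-31019379, minus strand: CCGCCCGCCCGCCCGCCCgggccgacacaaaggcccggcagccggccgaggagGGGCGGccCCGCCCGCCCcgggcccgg
Mdn1, rose, chr4:32657039-32657118, plus strand: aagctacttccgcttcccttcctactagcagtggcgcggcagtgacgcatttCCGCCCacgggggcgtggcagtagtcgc
Nle1, rose, chr11:82908461-82908540, minus strand: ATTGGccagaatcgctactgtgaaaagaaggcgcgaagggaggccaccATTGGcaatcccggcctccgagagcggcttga
Ubtf, rose, chr11:102316772-102316851, minus strand: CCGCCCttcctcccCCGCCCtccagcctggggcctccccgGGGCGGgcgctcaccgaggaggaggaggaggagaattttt
Dkc1, fell, chrX:75095774-75095853, plus strand: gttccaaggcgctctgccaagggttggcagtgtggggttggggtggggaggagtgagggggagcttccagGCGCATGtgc
Gar1, fell, chr3:129831397-129831476, minus strand: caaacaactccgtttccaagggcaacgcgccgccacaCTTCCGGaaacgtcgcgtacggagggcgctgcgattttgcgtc
Rrn3, fell, chr16:13780619-13780698, plus strand: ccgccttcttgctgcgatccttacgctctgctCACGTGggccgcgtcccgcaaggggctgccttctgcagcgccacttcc

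The Nop2 stretch holds an E-box 60 bases and an ETS core 38 bases before the start site. The E-boxes of Mdn1, Mybbp1a and Nle1 lie 38, 40 and 23 bases after the start site, outside the stretches shown. Rrn3, which fell, has an E-box 48 bases before its start site, so the E-box stands in promoters of both directions. The GC boxes of Gnl3 lie in tandem, with 7 matches in its stretch. Ubtf has several start-site windows, and the stretch shown was taken as the one with the most matches (3). It lies upstream of an internal start site, within the annotated gene (102304560 to 102319742, minus strand). The window at 102319543 to 102319842, which spans the annotated start of the gene, holds a GC box 12 bases before its start site.

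RNA polymerase I initiation depends on UBTF, which coats the rRNA gene promoter and body, and on RRN3 (TIF-IA), which joins the polymerase to that promoter. Ubtf (chromosome 11, 102304560 to 102319742, minus strand, GRCm38) was at 5.62, 15.8 and 9.74 CPM in the WT libraries and at 24.9, 28.5 and 25.8 CPM in the Nat10 cKO libraries. All 3 Nat10 cKO libraries lay above all WT libraries, and WT replicate 2 was the nearest to them. Its change was 1.37 (SE 0.252, limma adjusted p = 0.00162), 2.54-fold in means. Rrn3 (chromosome 16, 13780708 to 13814839, plus strand) went the other way, from 147, 174 and 182 CPM to 126, 108 and 136 CPM. The groups did not overlap, and it fell by 0.44 (log2, SE 0.109, limma adjusted p = 0.00761). Its call was lost without WT replicate 3 (limma adjusted p = 0.0544) and on the deposited scale, where the change was -0.08.

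The nucleolar chaperones TCOF1 (treacle), a partner of UBTF and polymerase I, and NOLC1 (Nopp140), which binds both kinds of snoRNP, did not pass. Nolc1, the more abundant, was at 81.6, 93.9 and 83.1 CPM in the WT pools and 91.7, 89.2 and 102 CPM in Nat10 cKO, with overlapping groups. Tcof1 was at 25.6 ± 3.65 and 27.6 ± 4.48 CPM (SD, n = 3).

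Of the 5 genes of the H/ACA particle, 2 fell and 0 rose, where 17.6% of all tested genes fell and 17.4% rose. Dyskerin (DKC1) is the pseudouridine synthase, GAR1, NHP2 and NOP10 are its core partners, and NAF1 holds the place of GAR1 during assembly; the same proteins stabilise telomerase RNA. Dkc1 (chromosome X, 75095854 to 75109777, plus strand) was at 216.7, 200.6 and 202.5 CPM in the WT pools and 141, 119 and 153 CPM in Nat10 cKO. Every Nat10 cKO library lay below every WT library. It fell by 0.59 (log2, SE 0.101, limma adjusted p = 0.000797). Gar1 (chromosome 3, 129824912 to 129831396, minus strand) was at 14.7, 15.2 and 14.4 CPM in the WT pools and 9.05, 7.02 and 11.3 CPM in Nat10 cKO. Its WT libraries were tightly grouped and its Nat10 cKO libraries spread below them, and it fell by 0.66 (SE 0.158, limma adjusted p = 0.00613). Naf1 was also lower in every Nat10 cKO library, from 7.25 ± 0.289 to 5.49 ± 1.16 CPM, and did not pass (limma adjusted p = 0.0956). Nhp2 was higher in every Nat10 cKO library, at 61.5 ± 1.55 and 70.2 ± 3.29 CPM, and did not pass either (limma adjusted p = 0.124). Nop10 stood at 88.6 ± 9.22 and 85.7 ± 6.29 CPM with overlapping groups. On the deposited scale, which keeps the differences in library totals, Dkc1 and Gar1 did not pass. Their changes there were -0.23 and -0.32 beside an all-gene median of 0.24.

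Ratios between members within a library do not depend on the scaling of that library, so they were computed per exon length for 9 pairs chosen after the levels were seen, and carry no test. Dkc1 relative to Nhp2 was 0.976, 0.888 and 0.942 in WT and 0.585, 0.449 and 0.610 in Nat10 cKO. Gar1 relative to Nhp2 went from 0.161 ± 0.00104 to 0.0874 ± 0.0225 (SD, n = 3). The ratio of Dkc1 to Gar1 overlapped between the groups, at 5.82 ± 0.305 and 6.39 ± 0.714. Within the particle, Dkc1 and Gar1 were thus lower relative to Nhp2 in each Nat10 cKO library, whatever factor is applied. Nhp2 was itself higher in every Nat10 cKO library. Over Nop10, whose groups overlapped, the log2 changes were smaller, at -0.55 for Dkc1 and -0.68 for Gar1, against -0.78 and -0.91 over Nhp2. The groups stayed apart over Nop10. Nearest were WT replicate 3 and Nat10 cKO replicate 3, at 0.563 and 0.514 for Dkc1 and 0.0964 and 0.0914 for Gar1.

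**Figure D2:**
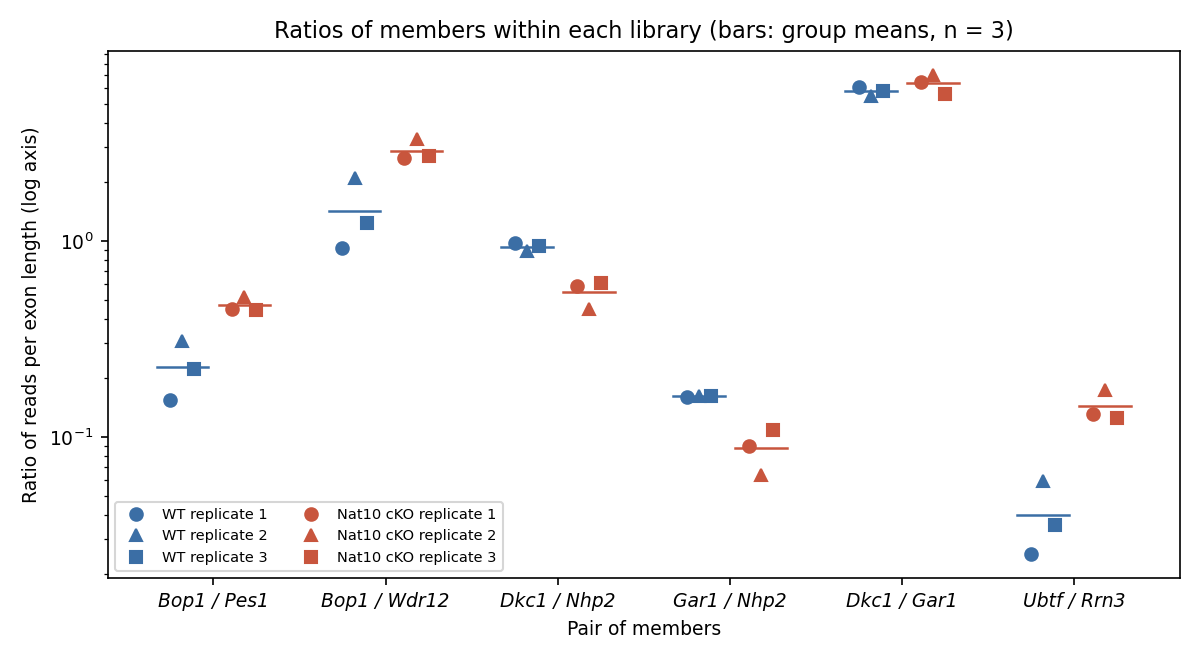
Ratios of 6 pairs of members within each library, as reads per exon length (log axis), with 3 libraries per genotype and bars at group means. Bop1 over Pes1 and Ubtf over Rrn3 are higher in all 3 Nat10 cKO libraries, Dkc1 and Gar1 over Nhp2 are lower in all 3, and Dkc1 over Gar1 overlaps.

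PeBoW is the complex of PES1, BOP1 and WDR12 that early pre-60S particles need to process 5.8S and 28S rRNA. Only Bop1 passed among its 3 genes, where 35% of all tested genes passed. Bop1 (chromosome 15, 76452989 to 76477277, minus strand) was at 12.1, 20.99 and 14.2 CPM in the WT pools and 31.2, 38.01 and 30.5 CPM in Nat10 cKO. The lowest Nat10 cKO library stood above the highest WT library, and the change was 1.06 (SE 0.171, limma adjusted p = 0.000558). Pes1, the most abundant of the complex, was at 79.7, 69.5 and 65.6 CPM in the WT pools and 70.8, 75 and 70.2 CPM in Nat10 cKO. Wdr12 was at 46.8 ± 6.44 and 46.6 ± 1.32 CPM. Neither partner passed, with SEs of 0.0989 and 0.112 around changes of 0.01 and 0.00033. Relative to Pes1, and per exon length, Bop1 was at 0.155, 0.309 and 0.222 in WT and at 0.451, 0.518 and 0.444 in Nat10 cKO. Bop1 exons overlap Mroh1 on the other strand by 50 bases, and the sources used here do not state whether counting used strand.

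The rRNA methyltransferase genes number 3. NOP2 and NSUN5 place 5-methylcytosine on 28S rRNA, and FTSJ3 methylates ribose. Nop2 (chromosome 6, 125131909 to 125144753, plus strand) was at 4.26, 7.98 and 5.38 CPM in the WT pools and 12.1, 14.5 and 10.9 CPM in Nat10 cKO. All 3 Nat10 cKO libraries were higher, by 1.00 (SE 0.190, limma adjusted p = 0.00149). Ftsj3, the most abundant of these 3, was at 89.8, 88.8 and 79.1 CPM in the WT pools and 79.9, 79.8 and 94.0 CPM in Nat10 cKO, and Nsun5 at 5.89 ± 0.474 and 6.41 ± 0.816 CPM. Both overlapped between genotypes and did not pass.

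Among 15 factors of early pre-60S assembly, 5 rose, 0 fell and 10 did not pass. Of all tested genes, 17.4% rose and 17.6% fell, 35% in all. Nop16 (chromosome 13, 54584185 to 54590090, minus strand), a pre-60S assembly factor, had the largest change, from 0.402, 1.44 and 0.746 CPM to 2.38, 4.496 and 2.48 CPM. The groups were apart, and the change was 1.15 (SE 0.227, limma adjusted p = 0.00202); these levels rest on 13 to 214 reads per library. Mybbp1a, a nucleolar protein that also binds transcription factors, was at 9.89, 14.5 and 11.1 CPM in the WT pools and 20.0, 22.6 and 23.4 CPM in Nat10 cKO. Its rise was 0.86 (SE 0.146, limma adjusted p = 0.000797); on per-read shares it was 0.65 and did not pass. Mak16 was at 0.0309, 0.632 and 1.32 CPM in the WT pools and 1.84, 2.54 and 1.66 CPM in Nat10 cKO, with a single read in WT replicate 1. Its change of 0.93 passed in limma (adjusted p = 0.00911) and not in edgeR or DESeq2 (adjusted p = 0.0670 and 0.263), and 882 bases of its 2239 exon bases overlap Tti2 on the other strand.

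Rrp1b and Nip7 rose by less. Rrp1b, a paralog of Rrp1 that also binds chromatin, was at 49.6, 48.5 and 49.7 CPM in the WT pools and 59.4, 60.2 and 69.0 CPM in Nat10 cKO (change 0.34, SE 0.0975, limma adjusted p = 0.0158). Its call was lost without WT replicate 3 (limma adjusted p = 0.0517). Nip7, an early pre-60S assembly factor, was at 47.7, 47.3 and 47.3 CPM in the WT pools and 58.2, 61.2 and 54.5 CPM in Nat10 cKO. Its change was 0.28 (SE 0.0945, limma adjusted p = 0.0331), and leaving out any 1 of WT replicates 1 and 3 and Nat10 cKO replicates 1 and 2 ended the call (limma adjusted p of 0.0685 to 0.114), as did the fit with the replicate number as a block (limma adjusted p = 0.0620). Neither gene passed as deposited or on per-read shares.

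The early factors with the highest levels did not pass. Rsl1d1, which shares a domain with ribosomal protein L1, was the most abundant member by far, at 1023, 799 and 908 CPM in the WT pools and 988, 980 and 865 CPM in Nat10 cKO. Brix1, an early assembly factor, was at 427 ± 32.0 and 437 ± 16.2 CPM. Nifk, a partner of the proliferation antigen Ki-67, was higher in every Nat10 cKO library by a small margin, at 150 ± 4.67 and 161 ± 3.79 CPM. Rrp1 was lower in every Nat10 cKO library, at 18.4 ± 2.61 and 14.97 ± 1.49 CPM, and did not pass (limma adjusted p = 0.131). The others, Ebna1bp2, Rrp15, Rpf1, Noc2l, Noc3l and Lyar, overlapped between the genotypes, with changes from -0.15 to 0.21.

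RRS1 and RPF2 bring the 5S rRNA particle to the pre-60S. Rrs1 (chromosome 1, 9545408 to 9547455, plus strand), a gene of 2048 exon bases, was at 0.742, 2.12 and 0.870 CPM in the WT pools and 3.10, 3.95 and 2.52 CPM in Nat10 cKO. The groups did not overlap, and the change was 0.94 (SE 0.218, limma adjusted p = 0.00527), with 24 to 232 reads per library. Rpf2, with which it forms a dimer, was at 59.4, 47.3 and 58.7 CPM in the WT pools and 56.2, 52.1 and 49.95 CPM in Nat10 cKO and did not pass.

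Nucleolar GTPases release or check assembly steps; GNL3 is nucleostemin, known from stem cells, GNL3L its paralog, and GNL2 acts late in the nucleolus. Gnl3 was at 118, 102 and 115 CPM in the WT pools and 151, 155 and 137 CPM in Nat10 cKO, and rose by 0.40 (SE 0.0932, limma adjusted p = 0.00507). It did not pass as deposited (limma adjusted p = 0.263) or on per-read shares, where the change was 0.19 (limma adjusted p = 0.592). It hosts 3 snoRNA genes on its strand in GENCODE M21. Gnl3l was at 2.29, 6.40 and 6.39 CPM in the WT pools and 10.2, 9.85 and 7.38 CPM in Nat10 cKO, and rose by 0.84 (SE 0.265, limma adjusted p = 0.0266). WT replicate 1 stood well below the other two for Gnl3l, and without it the change was no longer past the threshold (limma adjusted p = 0.0685); the same held without Nat10 cKO replicate 1 or 2 (0.0956 and 0.0973) and on per-read shares (0.0615). Gnl2, the highest of the 3 in WT, was at 141, 135 and 125 CPM in the WT pools and 124, 111 and 129 CPM in Nat10 cKO, and did not pass.

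MDN1 (midasin) is a giant AAA ATPase that pulls assembly factors off the pre-60S; NLE1 is one of the factors it removes, and the rixosome (PELP1, TEX10, SENP3, LAS1L and NOL9) joins it and trims the second internal transcribed spacer. Mdn1 (chromosome 4, 32657119 to 32775217, plus strand) was at 1.61, 5.57 and 3.62 CPM in the WT pools and 13.1, 15.8 and 13.1 CPM in Nat10 cKO. These groups lay far apart, 3.88-fold in means, and its change of 1.80 (SE 0.255, limma adjusted p = 0.000261) was the largest among the 46. Its exons span 21836 bases, so per length it was the lowest member in both genotypes, at 0.165 CPM per kb in WT and 0.6398 CPM per kb in Nat10 cKO. Nle1 was at 5.50, 7.72 and 5.11 CPM in the WT pools and 8.57, 8.19 and 10.1 CPM in Nat10 cKO. Its change of 0.50 (SE 0.166, limma adjusted p = 0.0323) no longer passed when any 1 of WT replicates 1 and 3 and Nat10 cKO replicates 1 and 3 was left out (limma adjusted p of 0.0766 to 0.145), as deposited (0.198) or on per-read shares (0.452).

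None of the 5 rixosome genes passed, where 35% of all tested genes did. Tex10, the most abundant, was at 176, 134 and 161 CPM in the WT pools and 199, 207 and 161 CPM in Nat10 cKO. Senp3, its SUMO protease, was higher in every Nat10 cKO library, at 37.1 ± 6.82 and 46.4 ± 1.74 CPM, with a limma adjusted p of 0.0614 (0.0489 with the replicate number as a block). The nuclease gene Las1l, the kinase gene Nol9 and Pelp1 had changes of 0.04, 0.06 and 0.05.

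Where 35% of all tested genes passed, the late factors did not pass in either direction. These act as the particle leaves the nucleolus or reaches the cytoplasm: NSA2 and RSL24D1 in the nucleus, MRTO4 as a place-holder for the ribosomal stalk, and SBDS, mutated in Shwachman-Diamond syndrome, in the release of eIF6. Rsl24d1, the most abundant, was at 207, 254 and 245 CPM in the WT pools and 233, 215 and 231 CPM in Nat10 cKO. Sbds was at 228 ± 5.26 and 218 ± 5.42 CPM. Mrto4 was higher in every Nat10 cKO library (65.5 ± 3.05 and 77.2 ± 6.97 CPM, limma adjusted p = 0.0821), and Nsa2, of whose exons 1591 bases overlap other genes on the opposite strand, had a change of 0.22.

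**Figure D3:**
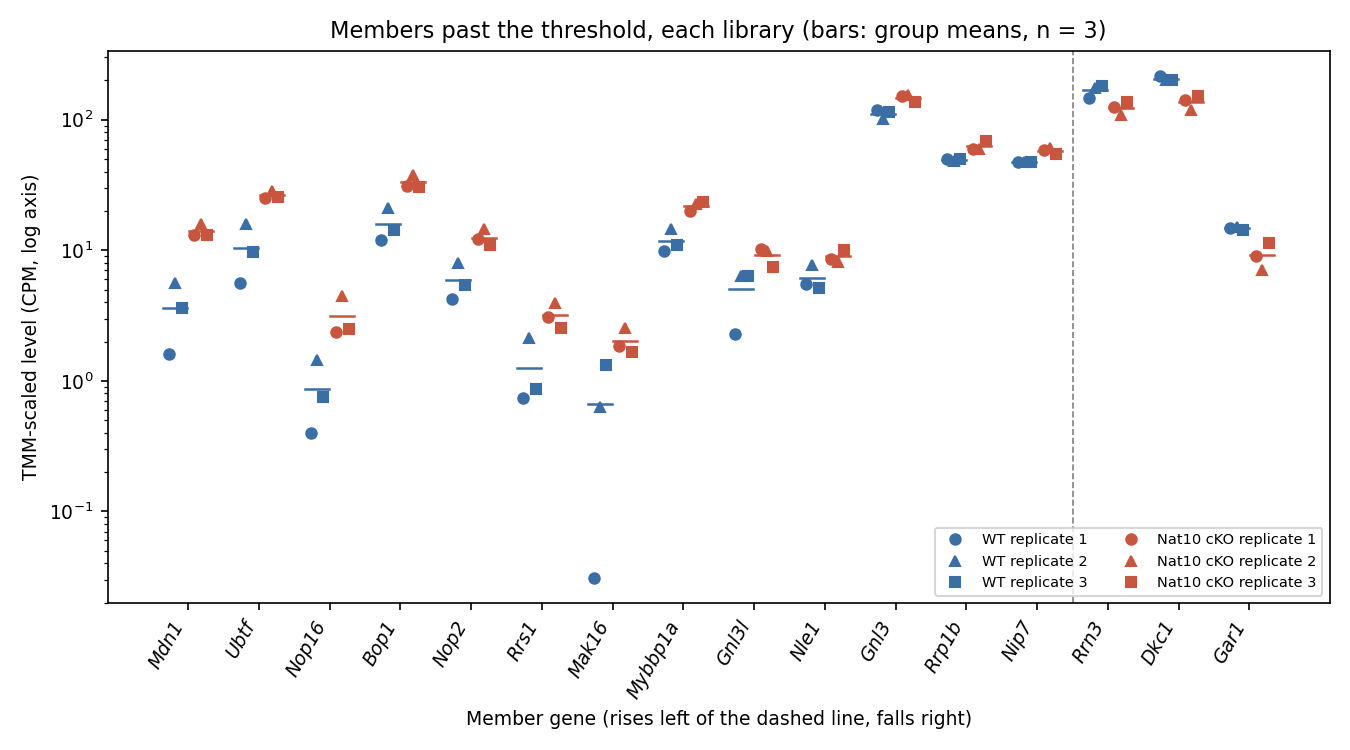
TMM-scaled level of the 16 called members in each of 6 libraries (CPM, log axis), with bars at group means and marker shape for replicate number. The 13 rises stand left of the dashed line and the 3 falls right of it; Gnl3, Rrn3 and Dkc1 are the only ones above 100 CPM.

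The genes that rose were mostly the weakly expressed ones. Split at their median level of 47.4 CPM over all libraries, a description made after the values were seen, 10 of the 23 lower members rose and 1 fell, against 3 and 2 of the 23 at or over it. Over all tested genes, 17.4% rose and 16.1% fell under the same level, and 17.2% and 22.4% at or over it. Across the 46 members, level and change had a Spearman correlation of -0.46; over 13957 tested genes with a coding transcript sequence it was -0.07. The corresponding correlations with the GC content of the transcript were 0.23 and 0.12, and with its length 0.18 and -0.10. Genes of 1 set of libraries are not independent, and level and change share the same 6 libraries. Among WT libraries, 9 of the 13 members that rose were highest in WT replicate 2, the WT library nearest to Nat10 cKO in them, and 9 were lowest in WT replicate 1. Over all genes called higher the shares were 57.6% and 53.9%, and over all tested genes 39.6% and 36.1%. Without WT replicate 2, 15 members rose and 3 fell, and without WT replicate 1, 11 and 3. Over all tested genes, the numbers called higher moved the same way, from 3190 of 18353 to 3375 without WT replicate 2 and 2502 without WT replicate 1.

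**Figure D4:**
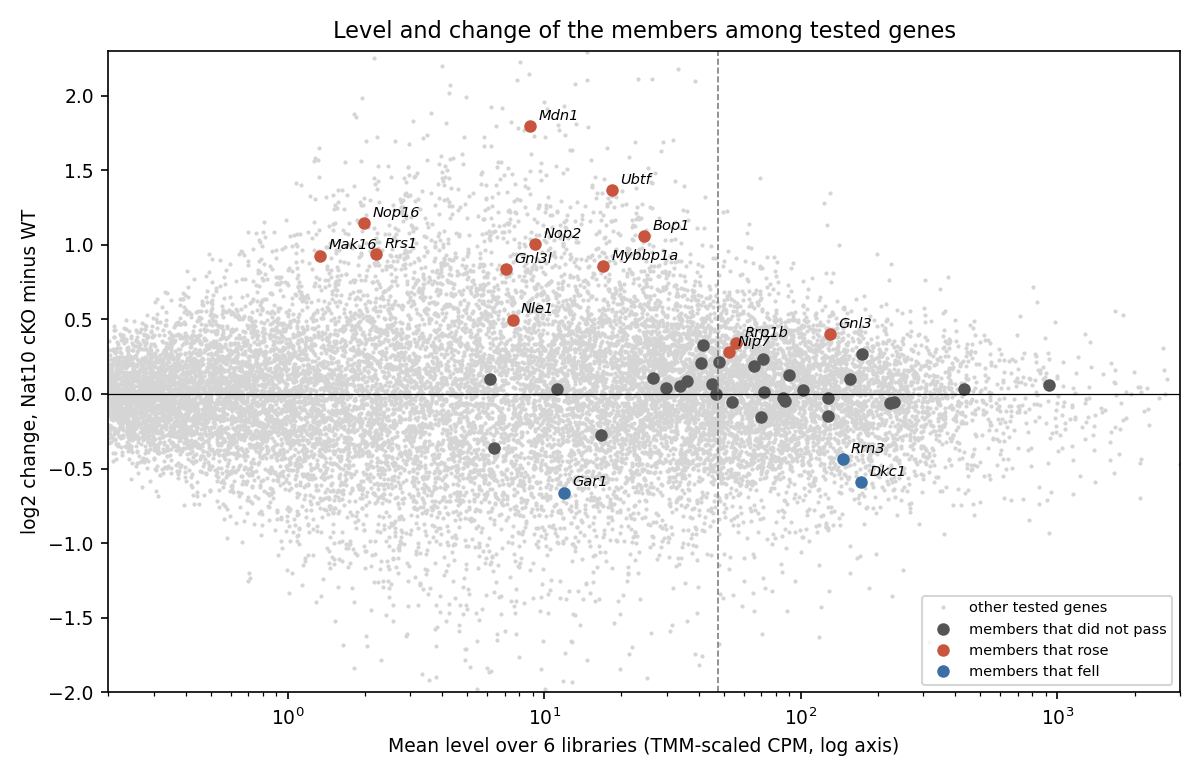
Mean level over 6 libraries (TMM-scaled CPM, log axis) against log2 change for the 46 members and, in grey, other tested genes; the dashed line marks the members' median level of 47.4 CPM. Left of that line lie 10 of the 13 rises, and Rsl1d1, the rightmost member, has a change of 0.06; the axes leave out some grey genes.

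Per exon length, the WT levels ran from 403 CPM per kb for Rsl1d1, 157 for Brix1, 137 for Rsl24d1 and 112 for Sbds down to 0.608 for Rrs1, 0.467 for Nop16, 0.295 for Mak16 and 0.165 for Mdn1. Within complexes the levels were unequal in WT. Core H/ACA genes stood at 79.9 (Nop10), 53.6 (Nhp2), 50.1 (Dkc1) and 8.62 (Gar1) CPM per kb, and PeBoW genes at 23.7 (Pes1), 5.33 (Bop1) and 3.92 (Wdr12). In Nat10 cKO oocytes Bop1 stood at 11.2 and Dkc1 at 33.4 CPM per kb. Exon length is the union of annotated exons, which understates genes with long rarely used exons.

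Other genes of ribosome production were taken from 6 lists. Among 33 further 60S assembly factors, 9 rose and 0 fell, with a median change of 0.14. That is 27.3% higher and 0% lower, against 17.4% and 17.6% of all tested genes. As deposited 3 rose and 0 fell (9.09% higher, against 6.58%). On per-read shares 2 rose and 0 fell (6.06% higher, against 5.6%). Nop53, which docks the RNA exosome on the pre-60S, went from 6.83 ± 1.00 to 14.9 ± 0.916 CPM, and Heatr3, an import factor for the 5S particle, from 9.82 ± 2.93 to 25.5 ± 4.75 CPM (changes 1.03 and 1.31; limma adjusted p = 0.000211 and 0.000271). Box C/D particles guide ribose methylation. Of their 5 genes, 2 rose (40%, against 17.4% of all tested genes), Nop56 by 0.51 and Nop58 by 0.34, and 0 fell. The call of Nop58 was lost without WT replicate 3 (limma adjusted p = 0.0505), and 0 of the 5 passed as deposited or on per-read shares. Of 8 snoRNP assembly genes, 3 rose (37.5%, against the same 17.4%) and 0 fell. On each of these 2 scales 1 rose (12.5%, against 6.58% and 5.6%) and 0 fell. Znhit3 went from 14.2 ± 2.24 to 30.1 ± 3.81 CPM, and Znhit6 changed by 0.27. Znhit6 did not pass when any 1 of WT replicates 1 and 3 and Nat10 cKO replicates 1 and 3 was left out. Nor did Znhit6 pass as deposited or on per-read shares.

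Polymerase I subunits and its factor SL1 had 3 rises and 2 falls among 18 genes (16.7% and 11.1%, against 17.4% and 17.6% of all tested genes). Polr2h, a subunit shared by all 3 nuclear polymerases, and Polr1c, shared by polymerases I and III, rose by 1.06 and 1.01 (limma adjusted p = 0.000146 and 0.000304). Of 16 exosome and trimming genes, 3 rose and 2 fell (18.75% and 12.5%, against the same background). C1d, an exosome cofactor, went from 9.01 ± 3.68 to 22.9 ± 3.60 CPM. Tent4b, a poly(A) polymerase of the exosome's adaptor complex, went from 76.0 ± 4.39 to 55.3 ± 4.59 CPM. The 49 genes of large-subunit ribosomal proteins had 11 rises and 5 falls (22.45% and 10.2%, against 17.4% and 17.6%). Their median was -0.02, with Rpl17 at -0.51 and Rpl29 at 0.53. The share called in either direction was 32.65%, against 35% of all tested genes. As deposited, 1 of the 49 rose and 0 fell, and on per-read shares 1 rose and 4 fell. Tent4b and Rpl17 did not pass as deposited, and Rpl29 passed on neither of these scales. Over the 129 genes of these lists, 31 rose and 9 fell (24.0% and 6.98%), against 17.4% and 17.6% of all tested genes. As deposited 9 rose and 0 fell, so 6.98% rose against 6.58% of all tested genes. On per-read shares 8 rose and 7 fell, and 6.2% rose against 5.6% of all tested genes. On both of these scales the share that rose was thus near the background. The share that fell was 0% against 1.39% as deposited, and 5.43% against 16.5% on per-read shares. Rises numbered 19 without WT replicate 3, where the number called higher over all tested genes went from 3190 to 2153. Falls numbered 4, 2 and 3 when WT replicate 1, WT replicate 3 or Nat10 cKO replicate 2 was left out. Over all tested genes, the number called lower went from 3232 to 2597, 2213 and 2271 in the same fits.

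**Figure D5:**
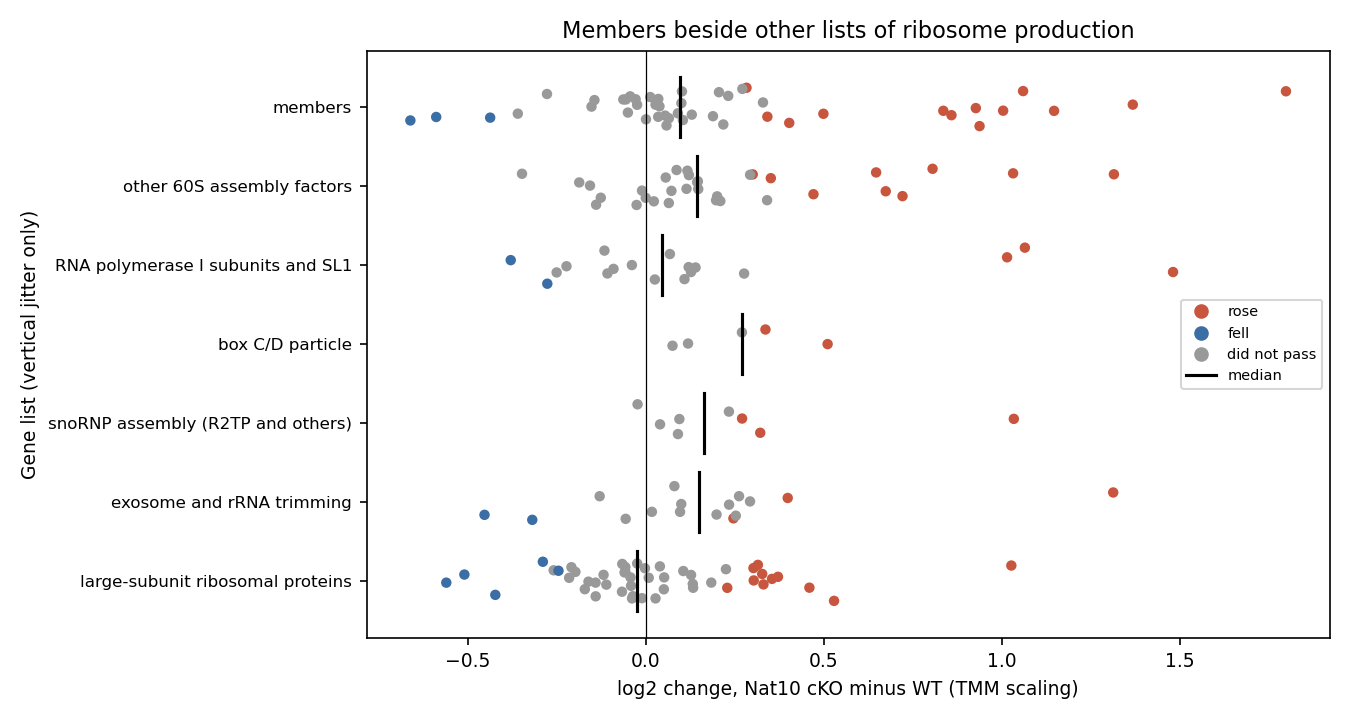
log2 change (Nat10 cKO minus WT, TMM scaling) of each gene in the 46 members and 6 other lists, coloured by call, with vertical bars at medians. The medians run from -0.02 for large-subunit ribosomal proteins to 0.27 for the box C/D particle, and the members' median is 0.09.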

How the data were processed

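The submitters' processing notes list featureCounts, the aligner STAR (2.7.10a), the trimmer Trim Galore (0.6.7) and the build mm10, without settings or annotation. In the deposited table, the column of WT replicate 1 holds whole counts of reads per gene. The other 5 columns hold a deposited scaled signal, whole reads multiplied by 1 factor per library (1.38, 0.945, 0.920, 0.908 and 0.932); each factor equals 69 divided by a whole number (50, 73, 75, 76 and 74), whose meaning is not stated. Dividing each column by its factor returned whole reads (tolerance 0.001) for 100% of values above 0. The table holds 0 ERCC rows.

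Genes were kept by filterByExpr (minimum count 10), scaled by TMM and fitted with limma (trended, robust) on log2(CPM + 1), two-sided, which understates changes of low genes. The members and lists were chosen with earlier results of these data known. Named were Nat10, every called member, the most abundant member of each role, the 2 smallest p of each related list and the top marker of each cell type; other members are given by level or change. Listed symbols Skiv2l2 and Papd5 were updated through RefSeq synonyms. Alternatives were DESeq2 factors, 2 other scalings, pseudocounts of 0.25 and 4, no filter, edgeR, DESeq2, the replicate number as a block and leaving out each library. The fit was tested on simulated data. Positions, lengths and GC came from GENCODE M21 (GRCm38, the assembly of mm10); exons of 15 members overlap a gene on the other strand. Software was limma 3.58.1, edgeR 4.0.16 and DESeq2 1.42.0 under R 4.3.3, with pandas 2.3.3, numpy 2.4.6 and matplotlib 3.10.9 under Python 3.11.15.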

Additional observations from a re-analysis of the deposited data

How the results depend on the processing

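Of the 16 called members, 0 changed direction in any of the 15 alternatives, and 6 passed in all of them (Bop1, Nop2, Nop16, Rrs1, Mdn1 and Ubtf). The members that rose numbered 7 on per-read shares, and the members that fell 0 on the deposited scale. Leaving out 1 library gave 10 to 15 rises and 2 to 4 falls. Over the 18353 tested genes, the same fits called 2153 to 3375 higher and 2213 to 3356 lower. For the related lists, rises were 9 on the deposited scale and 8 on per-read shares. Falls there were 0 on the deposited scale and 4 with no filter, and leaving out 1 library gave 19 to 36 rises and 2 to 12 falls. Over all genes, the fit with no filter called 2601 of 32265 higher and 2323 lower, against 3190 and 3232 of 18353 in the main fit. The 3 calls lost with no filter were those of Nip7, Gnl3l and Nle1. The cause was not tested.

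Members that did not pass could change sign. On per-read shares 16 did: Pes1 (-0.20), Wdr12 (-0.21), Nsun5 (-0.089), Rrp15 (-0.0085), Nifk (-0.12), Rpf1 (-0.19), Brix1 (-0.18), Rsl1d1 (-0.16), Noc2l (-0.17), Noc3l (-0.12), Las1l (-0.17), Nol9 (-0.15), Pelp1 (-0.16), Nhp2 (-0.027), Nolc1 (-0.087) and Tcof1 (-0.11). As deposited 9 did: Ftsj3 (0.33), Ebna1bp2 (0.20), Rrp1 (0.063), Lyar (0.33), Rpf2 (0.30), Gnl2 (0.21), Rsl24d1 (0.31), Sbds (0.30) and Nop10 (0.31). Wdr12 was at -0.00016 with a pseudocount of 4, -0.0080 in edgeR and -0.00068 in DESeq2. The ranges over leaving out 1 library that crossed 0 were Pes1 -0.041 to 0.10, Wdr12 -0.10 to 0.10, Ftsj3 -0.10 to 0.020, Rpf1 -0.048 to 0.075, Brix1 -0.028 to 0.082, Rsl1d1 -0.033 to 0.15, Noc2l -0.035 to 0.14, Lyar -0.10 to 0.054, Rpf2 -0.16 to 0.0049, Pelp1 -0.028 to 0.13, Rsl24d1 -0.13 to 0.0064, Nop10 -0.13 to 0.028, Tcof1 -0.021 to 0.20.

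Deviations of same-numbered libraries from their group means correlated at 0.079, 0.075 and -0.12, and those of other pairs at -0.231 to 0.237. With 3 libraries per group, these values cannot decide whether the replicate numbers pair the libraries. With the number as a block, 13 members rose and 3 fell. Nip7 lost its call and Senp3 gained one, and in the related lists 25 rose and 7 fell. Over all 18353 tested genes, that fit called 3070 higher and 3164 lower, against 3190 and 3232 in the main fit. With 1 to 232 reads per library, Mak16, Nop16 and Rrs1 limit what depth can show.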
